A study of Arabidopsis thaliana with 20 samples.

Results

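The low-dose cytokinin response of the ckh2-1 mutant of Arabidopsis thaliana was read from 4 Affymetrix arrays of a set of 20. They were the arrays titled ckh2_CK25, replicates 1 and 2, and the arrays titled ckh2_CK0, replicates 1 and 2, chosen by title alone. All 4 carried RNA of ckh2-1 hypocotyl segments cultured for 3 days with the auxin 2,4-D at 100 ng/ml, under continuous light. The first pair also received the cytokinin kinetin at 25 ng/ml, and the second received none. Segments were cut from seedlings grown in dim light for 10 days. The other 16 arrays held ckh2-1 at 200 ng/ml kinetin, ckh1-1 and the wild type (Ler) at 25, 200 and 0 ng/ml, and the wild type on 100 ng/ml TSA, the histone deacetylase inhibitor trichostatin A, without kinetin. Every group had 2 arrays and every medium held 2,4-D. Each mutant is 1 allele, and the labels do not say how many segments or plants went into an array. In such whole segments, fewer cells of a type and less RNA per cell cannot be told apart.

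Plant cells sense cytokinins through membrane histidine kinases, which pass phosphate to type-B response regulators in the nucleus. Those factors switch on target genes, among them the type-A response regulators, which dampen the signal. In culture, auxin and cytokinin together drive hypocotyl segments to form callus, and cytokinin also favours greening and shoots. The ckh mutants were isolated because their explants form green, fast-growing callus at low cytokinin. CKH2 encodes PICKLE, a CHD3-type chromatin remodeller that is best known for holding back embryo genes in seedlings. CKH1 encodes a TAF12-type subunit of the general transcription machinery. The question put to the arrays here is which transcripts of ckh2-1 segments moved at the lower of both kinetin doses.

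Values are MAS5 signals in arbitrary units, and each array's median lay between 92.6 and 137. The trimmed mean signal was 310.9 on every replicate 1 array and 236.9 on every replicate 2 array, which is 0.39 on the log2 scale. Fold changes were therefore taken within a replicate number, by a limma fit with that number as a block. In what follows, paired signals are given in the order replicate 1, replicate 2. Fold changes are log2(signal + 27.4) differences, 25 ng/ml minus none, of 2 arrays against 2. Their SE rests on a spread estimated over all 20 arrays of the fit, so it does not measure the spread of the 4 ckh2-1 arrays alone. A probe set was called below an adjusted p of 0.05 over 15469 tested. The added constant makes the fold changes of dim probe sets smaller than the ratio of their signals. Of 26 markers listed to check the tissue, 2 have a name in the array's gene table. They were RCA, the Rubisco activase of green tissue (1120 and 626 at 25 ng/ml, against 632 and 559 without kinetin), and CLV3, of the shoot meristem, which lay between 2.54 and 5.92 on all 4 arrays. The labelled tissue could not be checked further, and neither CKH2 nor CKH1 is named in that table, so the mutated gene itself is not analysed here.

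Before the response itself, 2 of the 4 arrays need describing, because they shared a set of transcripts that did not follow kinetin. In 42 probe sets the fold change was above 1 within replicate 1 and below -1 within replicate 2, which is 0.272% of those tested, and 0 probe sets showed the reverse. Both the array with 25 ng/ml of replicate 1 and the array without kinetin of replicate 2 were high for them. Their median signal was 782 and 110 at 25 ng/ml, against 165 and 361 without kinetin. On the remaining 16 arrays of the series it ran from 103 to 275. In 37 of the 42, these were the highest signals of the 6 ckh2-1 arrays, the 200 ng/ml pair included. In the response of the wild type and of ckh1-1 to 25 ng/ml, 0 probe sets split in this manner. At 200 ng/ml against none, 2 did so in the wild type, and 2 split the other way. In that other direction, up in replicate 2 only, 10 split in ckh1-1 and 1 in ckh2-1 at 200 ng/ml. The set of 42 was picked on these very arrays after their values were seen, so its size is a description.

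Of these 42 probe sets, 22 map to 1 gene, 1 to several and 19 to none in the name table. PRX52, a class III peroxidase that acts on cell wall phenolics, had signals of 1030 and 164 at 25 ng/ml, against 194 and 575 without kinetin. AT5G64120, listed with the synonym peroxidase 71, had 7240 and 1840 at 25 ng/ml, against 3570 and 3960 without kinetin. SBT3.5, a secreted subtilisin-type protease, had 417 and 95.7 at 25 ng/ml, against 152 and 228 without kinetin. For each gene the arrays at 25 ng/ml lay on both sides of those without kinetin, so the groups overlapped. The split was widest in AT1G14550, at 779 and 3.37 with 25 ng/ml, against 13.8 and 264 without kinetin. AT3G46280 had 2250 and 111 at 25 ng/ml, against 253 and 982 without kinetin, and AT5G48430 had 1100 and 71.9, against 111 and 432. None of the 42 was called, and the adjusted p of the 6 genes named here ran from 0.848 to 0.978. Over all tested probe sets the fold changes of both replicate numbers correlated with r = 0.164, and with r = 0.251 without these 42. The 42 were picked for opposite fold changes, so leaving them out raises r by construction. Over all tested probe sets, the correlation was 0.739 in ckh1-1 and 0.252 in the wild type at this dose, to be set beside 0.164.

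**Figure D1:**
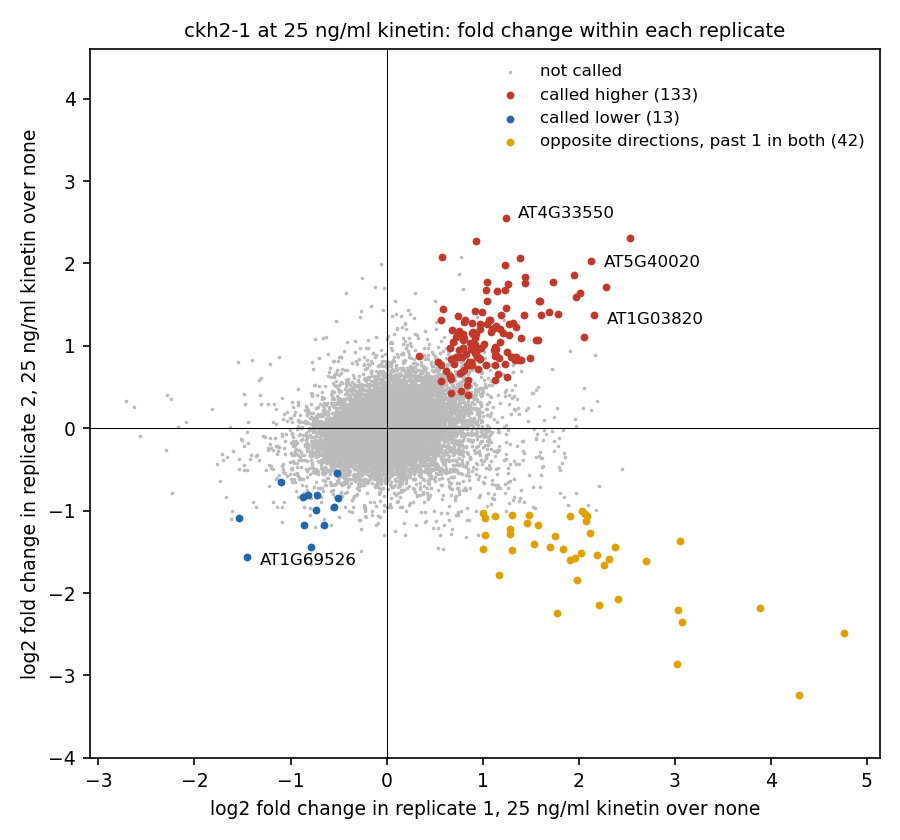
Log2 fold change of each of 15469 tested probe sets in ckh2-1, 25 ng/ml kinetin over none, within replicate 1 (horizontal axis) and within replicate 2 (vertical axis). The 133 probe sets called higher and the 13 called lower sit in the quadrants where both replicates have the same sign, while the 42 orange-yellow ones were above 1 in replicate 1 and below -1 in replicate 2.

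Among the probe sets called in ckh2-1 at 25 ng/ml kinetin, far more were higher than lower. limma called 133 probe sets higher, 0.86% of those tested, and 13 lower, 0.084%. The rises were moderate: the log2 fold change of the 133 ran from 0.55 to 2.42 with a median of 1.03, and 77 were above 1. The 13 falls ran from -0.53 to -1.51, with a median of -0.86. The median over all tested probe sets was 0.00, and 49.9% of them were positive. Fold changes above 1 in both replicates were found in 48 probe sets (0.31%) and below -1 in 5 (0.0323%). As deposited, the signals of 132 of the 133 and of all 13 did not overlap between the kinetin groups, against 13.3% of all tested probe sets higher at 25 ng/ml without overlap and 11.1% lower. The calls were made on these same arrays, so their lack of overlap follows largely from the choice and is no separate support.

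The number of calls depended on the replicate number and on single arrays, more than the direction did. Without the block, limma called 14 higher (0.0905%) and 0 lower, with 578 probe sets at an unadjusted p below 0.05, against 1845 with the block. By chance alone, about 773 of those tested would have an unadjusted p below 0.05. With all arrays first brought to 1 trimmed mean and no block, limma called 101 higher and 6 lower. The total of 146 calls became 63 without replicate 1 and 162 without replicate 2 at 25 ng/ml, and 77 without replicate 1 and 38 without replicate 2 of the arrays without kinetin. When the pair that was high for the 42 probe sets was left out together, a choice made after seeing the data that leaves 1 array against 1, limma called 0 probe sets, and 759 had an unadjusted p below 0.05. Leaving out the opposite pair in the same way gave 28 calls, all higher. Whether replicates came from separate cultures is not given in the labels, and the spread behind these p-values may be technical.

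Of the 133 probe sets called higher, 72 map to 1 gene and 61 to none. AT5G40020 stood first among those with a gene, with signals of 254 and 191 at 25 ng/ml kinetin, against 36.9 and 26.2 without kinetin. This was a rise of 2.08 ± 0.19 (adjusted p = 0.00013), close to the same size in both replicates (2.13 and 2.03). AT5G51890 had 509 and 404 at 25 ng/ml, against 112 and 91.6 without kinetin, and rose by 1.90 ± 0.20 (adjusted p = 0.000342). In both genes each array with kinetin lay well above each array without it. The name table gives these genes no product, and the same holds for the other genes named here by a locus tag alone.

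AT1G03820 had 1510 and 899 at 25 ng/ml, against 317 and 332 without kinetin, and rose by 1.76 ± 0.24 (adjusted p = 0.00181). AT1G12080 had 418 and 366, against 162 and 72.4, and rose by 1.61 ± 0.18 (adjusted p = 0.000455). AT4G08160, which carries the synonym ATXYN3 of a xylanase family, had 209 and 133, against 41.6 and 33.7, and rose by 1.58 ± 0.17 (adjusted p = 0.000344). These 3, AT5G40020 and AT5G51890 were the 5 of 20 called genes named by the rule that passed without the block, under every other scaling, constant and filter, and without each single array. With both arrays that were high for the 42 probe sets left out, their adjusted p was 0.086 for AT5G40020, AT5G51890, AT1G12080 and AT4G08160 and 0.233 for AT1G03820, with fold changes of 1.36 to 1.96. AT2G01610, with 610 and 457 at 25 ng/ml against 208 and 109 without kinetin, rose by 1.63 ± 0.19 (adjusted p = 0.000455). AT5G44400, with 790 and 440 against 246 and 195, rose by 1.33 ± 0.19 (adjusted p = 0.00226). Both calls held without each single array and were lost where the block was dropped from the values as deposited (adjusted p = 0.0927 and 0.49) and with that pair of arrays left out (0.128 and 0.158).

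In a further group of genes, the call was lost when 1 or another single array was left out. AT4G33550 had 169 and 265 at 25 ng/ml, against 55.7 and 22.6 without kinetin, and its rise of 1.90 ± 0.31 (adjusted p = 0.00572) was 1.24 within replicate 1 and 2.55 within replicate 2. AT3G45160 had 322 and 417, against 156 and 64.8, and rose by 1.60 ± 0.26 (adjusted p = 0.00542). JAL22, a jacalin-related lectin of a family of sugar-binding proteins, had 1430 on both arrays at 25 ng/ml, against 951 and 319 without kinetin, and rose by 1.33 ± 0.24 (adjusted p = 0.0114). Its rise was 0.58 within replicate 1 and 2.08 within replicate 2, and 0.77 without replicate 2 of the arrays without kinetin. In each of the 3, the replicate 2 array without kinetin was the low one. AT3G27200, AT2G37870, AT1G75280 and AT1G72230 rose by 1.40 to 1.51 (adjusted p from 0.00226 to 0.0128). Without the block, limma called none of these, nor AT3G45160 and JAL22 (adjusted p from 0.0943 to 0.354). The fold change of AT3G27200 was 0.68 with the pair of arrays high for the 42 probe sets left out, and 2.33 with the opposite pair left out. Without replicate 2 of the arrays without kinetin, 9 of the 16 rises named by the rule were no longer called (adjusted p from 0.0572 to 0.245): these 7 genes, EXPB3 and IRX15-L. Without replicate 2 at 25 ng/ml, 5 lost their call, AT4G33550, AT3G45160, AT2G37870, JAL22 and IRX15-L (0.0549 to 0.0914). Without replicate 1 at 25 ng/ml, AT3G27200 and EXPB3 did (0.191 and 0.0708), and without replicate 1 of the arrays without kinetin none of the 16 did.

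Of the 146 called probe sets, 9 belong to a gene with a name beyond its locus tag. All 9 were higher, as were 133 of the 146. EXPB3, a beta-expansin of the family of proteins that loosen the cell wall, had 815 and 637 at 25 ng/ml, against 360 and 258 without kinetin. It rose by 1.17 ± 0.19 (adjusted p = 0.00463). IRX15-L, a protein needed to build xylan in secondary walls, had 101 and 99.6 at 25 ng/ml, against 41.4 and 29.6 without kinetin, and rose by 1.03 ± 0.17 (adjusted p = 0.00572). Both genes were members of the gene lists, and in both the kinetin groups were apart on every array. Neither was called by limma without the block (adjusted p = 0.171 for EXPB3 and 0.145 for IRX15-L).

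The other names were picked after their values were seen. ATMPK13, a mitogen-activated protein kinase, had 366 and 269 at 25 ng/ml, against 151 and 98.6 without kinetin, and rose by 1.19 ± 0.18 (adjusted p = 0.00373). SAH7 had 1310 and 1070, against 693 and 465, and its rise of 1.03 ± 0.12 (adjusted p = 0.000522) was still called without any 1 of the 4 arrays, though not without the pair of arrays high for the 42 probe sets (0.128) or without the block (0.256). OPS (OCTOPUS), a polar membrane protein that promotes phloem differentiation, had 212 and 177 at 25 ng/ml, against 128 and 98.4 without kinetin, and rose by 0.66 ± 0.15 (adjusted p = 0.0472). The sugar-cleaving enzymes BGLU33, BGLU47 (beta-glucosidases) and GH9B8 (a glycosyl hydrolase of the endoglucanase family) rose by 1.04, 0.94 and 0.91 (adjusted p from 0.0423 to 0.0456). The calls of OPS and of these 3 enzymes were lost without each of the 4 arrays in turn (adjusted p from 0.0761 to 0.388), and that of ATMPK13 without replicate 2 of the arrays without kinetin (0.0714). Without the block ATMPK13, OPS and these enzymes were not called either (0.171 to 1). Over whole families, looked at because of these calls, 2 of 12 tested beta-glucosidases and 1 of 6 tested glycosyl hydrolases of that family were called higher and none lower, where 0.86% of all tested probe sets were called higher and 0.084% lower. The family medians were 0.09 and 0.24.

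**Figure D2:**
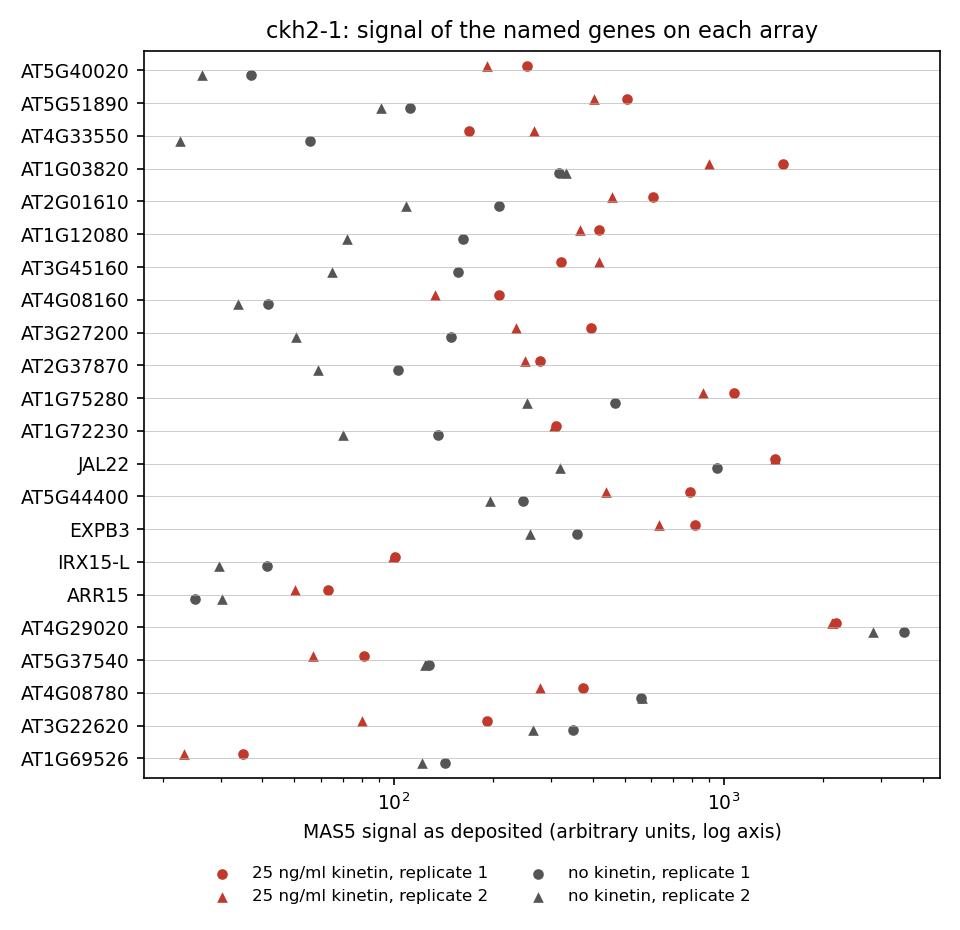
MAS5 signal on a log axis of 22 named genes in ckh2-1 on each array, with 25 ng/ml kinetin in red and no kinetin in grey, circles for replicate 1 and triangles for replicate 2. From AT5G40020 down to IRX15-L every red point lies right of both grey points of its gene, and from AT4G29020 down every red point lies left of them.

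The largest rise of all fell on the probe set 262796_at, which maps to no gene in the table and is named because it had the highest value. Its signals were 969 and 642 at 25 ng/ml, against 146 and 108 without kinetin, a rise of 2.42 ± 0.21 (adjusted p = 0.000112). On the other side, 262041_at, likewise without a gene, had 85.2 and 98.9 at 25 ng/ml, against 299 and 242 without kinetin. It fell by 1.31 ± 0.23 (adjusted p = 0.0085), a call that was lost without replicate 1 at 25 ng/ml (0.157) and without either array lacking kinetin (0.091 and 0.108).

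Few probe sets were called lower in ckh2-1 at 25 ng/ml, and each named call was lost without single arrays. Of the 13 probe sets called lower, 5 map to 1 gene and 8 to none, and 4 of the 5 genes were named by the rule. The other was AT2G20480, with a fold change of -0.88 ± 0.18 (adjusted p = 0.0258). AT1G69526 had 35.0 and 23.1 at 25 ng/ml, against 143 and 122 without kinetin, and fell by 1.51 ± 0.33 (adjusted p = 0.0397). AT3G22620 had 191 and 80, against 350 and 264, and fell by 1.12 ± 0.23 (adjusted p = 0.0324). In both, the arrays with kinetin lay below those without it. AT4G08780 had 374 and 277, against 561 and 563, and fell by 0.75 ± 0.16 (adjusted p = 0.0323). AT5G37540 had 81.4 and 56.8, against 128 and 124, and fell by 0.68 ± 0.15 (adjusted p = 0.0479). All 4 calls were lost without replicate 2 at 25 ng/ml (adjusted p from 0.09 to 0.159) and without either replicate of the arrays without kinetin (0.0711 to 0.164 and 0.262 to 0.415). Those of AT5G37540 and AT1G69526 were also lost without replicate 1 at 25 ng/ml (0.224 and 0.264), and all 4 without the filter on dim probe sets (0.0556 to 0.1).

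Of 10 type-A response regulators listed, a direct readout of cytokinin signalling, 2 have a name on the array and 1 was tested. It did not pass at this dose, and the family as a whole could not be judged. ARR15, the only tested member that has a name in the table, had 63.1 and 50.2 at 25 ng/ml, against 25.0 and 30.2 without kinetin. The arrays did not overlap, which also held for 13.3% of all tested probe sets in this direction. The log2 fold change was 0.61 ± 0.31 (adjusted p = 0.454). It was 0.61 ± 0.31 in ckh1-1 (adjusted p = 0.255) and 0.57 ± 0.31 in the wild type (adjusted p = 0.933). The response of ckh2-1 minus that of the wild type was 0.04 (adjusted p = 0.993). RR16, another type-A regulator, did not reach the signal filter in any group, with 20.8 and 14.6 at 25 ng/ml, against 12.3 and 13.1 without kinetin. At 200 ng/ml its ckh2-1 signals were 40.2 and 41.2, and those of ARR15 were 223 and 180. UGT76C2, an enzyme that puts glucose on cytokinins, had a log2 fold change of -0.47 ± 0.22 (adjusted p = 0.411), and its relative UGT76C1 of -0.14 ± 0.22 (adjusted p = 0.829).

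Across the gene lists, 276 entries in all, 50 have a name on the array, 43 were tested, and 2 were called, both higher, beside the 0.86% called higher over all probe sets. The median of the 43 was 0.07. Genes of xylem and secondary wall had the highest median, 1.02 over 4 tested members, all of them positive. Besides IRX15-L they were IRX15, its partner in xylan formation, with 49.0 and 36.2 at 25 ng/ml against 10.3 and 4.6 without kinetin (1.00 ± 0.23, adjusted p = 0.0545), and TBL34, which acetylates xylan, with 65.3 and 49.0 against 9.70 and 17.4 (1.05 ± 0.24, adjusted p = 0.0593). The 4th was GUT2, a glycosyltransferase of xylan synthesis, with 150 and 158 against 123 and 95.9 (0.41 ± 0.14, adjusted p = 0.261). None of the 4 overlapped between the kinetin groups, where 13.3% of all tested probe sets lay higher at 25 ng/ml without overlap. The list holds 28 entries, of which only these 4 have a name on the array. The median of these 4 was 0.92 in ckh1-1 and 0.20 in the wild type at the same dose. IRX15 and TBL34 were near the bottom of the signal range without kinetin.

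Among 13 expansins and xyloglucan endotransglucosylases, enzymes and proteins that remodel the wall, only EXPB3 was called. EXPA4, an alpha-expansin, had 3960 and 3040 at 25 ng/ml, against 2970 and 2290 without kinetin (0.41 ± 0.11, adjusted p = 0.103). XTH19 had 737 and 368, against 955 and 775 (-0.69 ± 0.16, adjusted p = 0.0592), and XTH32 had 48.9 and 54.1, against 22.3 and 28.6 (0.58 ± 0.24, adjusted p = 0.345). The list's median was 0.16, and it differed in sign between the replicates, at 0.41 in replicate 1 and -0.12 in replicate 2, and it was -0.20 with the pair of arrays high for the 42 probe sets left out. XTH18 split widest, with 2930 and 798 at 25 ng/ml against 1830 and 1220 without kinetin.

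**Figure D3:**
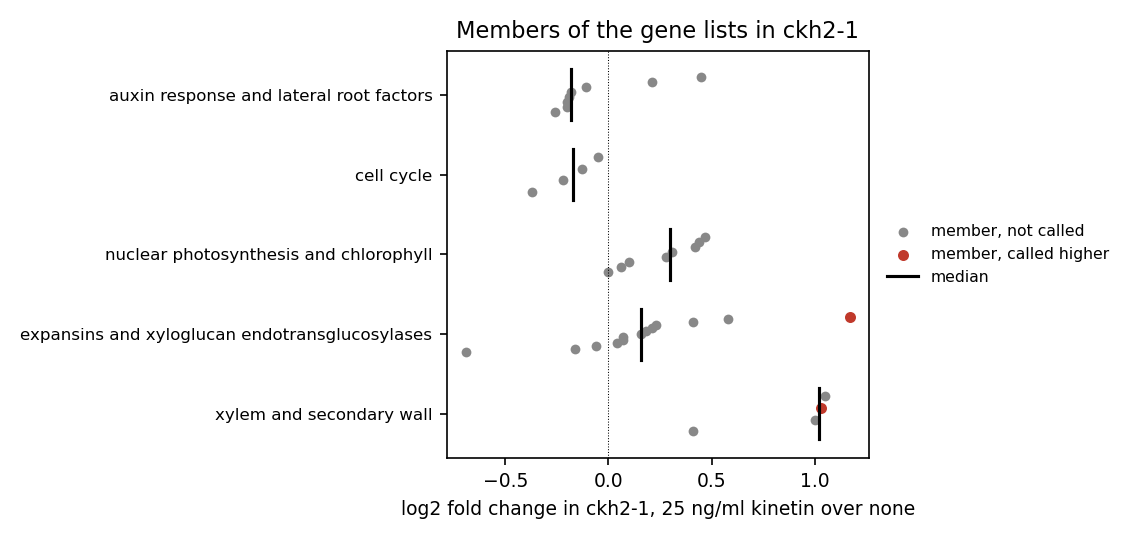
Log2 fold change in ckh2-1, 25 ng/ml kinetin over none, of each tested member (points) of the gene lists with at least 3 tested members, with the list median as a bar. EXPB3 and IRX15-L are the red points, and the 4 secondary wall genes lie between 0.41 and 1.05.

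Green-tissue genes had mostly positive fold changes, none of which passed the test. Of 8 nuclear genes of photosynthesis and chlorophyll, 0 were called and the median was 0.30, against 0.00 over all tested probe sets. PSAN, a subunit of photosystem I, had 337 and 206 at 25 ng/ml, against 219 and 160 without kinetin (0.44 ± 0.17, adjusted p = 0.33). PSBY, of photosystem II, had 823 and 624, against 600 and 469 (0.42 ± 0.18, adjusted p = 0.397), and LHCB4.1, an antenna protein, had a fold change of 0.00 ± 0.20. Of 68 tested plastid-encoded transcripts, a group picked after its values were seen, 62 were positive, 0 were called and the median was 0.29. Over all tested probe sets, 49.9% were positive, 0.86% were called higher and 0.084% lower. The median of the 68 was 0.25 in ckh1-1 and -0.05 in the wild type. Plastid transcripts are co-transcribed and share a compartment, so these 68 are not separate observations.

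Auxin-response, cell-cycle and embryo genes gave no call either. Of 8 auxin-response and lateral root genes the median was -0.18. LBD29, a factor of lateral root formation, had 544 and 143 at 25 ng/ml, against 342 and 321 without kinetin, and so moved in opposite directions in the replicates (0.63 and -1.03). PUCHI, of the same process, had 288 and 240, against 326 and 287 (-0.20 ± 0.17, adjusted p = 0.665). The 4 cell-cycle genes, the aurora kinases AUR1, AUR2 and AUR3 and PRL, had fold changes from -0.37 to -0.05. BBM, a factor of embryo identity, had 110 and 150 at 25 ng/ml, against 215 and 177 without kinetin (-0.51 ± 0.28, adjusted p = 0.491). Its arrays did not overlap, which also held for 11.1% of all tested probe sets in this direction. EEL, a bZIP factor of the seed, had 246 and 242, against 398 and 319 (-0.50 ± 0.27, adjusted p = 0.47). At 200 ng/ml, against the same arrays without kinetin, BBM was at 3.94 and 3.38 and EEL at 94.7 and 77.4.

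The genes called at 25 ng/ml were set beside the 200 ng/ml arrays of ckh2-1, which were compared with the same arrays without kinetin, so that only levels are given. The median signal of the 133 probe sets called higher was 99.6 without kinetin, 231 at 25 ng/ml and 472 at 200 ng/ml. That of the 13 called lower was 180 without kinetin, 78.6 at 25 ng/ml and 51.8 at 200 ng/ml. AT1G12080 reached 1750 and 1330 at 200 ng/ml and AT2G01610 1990 and 1280, which in each case is above both arrays at 25 ng/ml. AT5G40020 reached 352 and 360, a smaller further step. AT4G29020, followed because the highest dose lowers it most, had 3500 and 2820 without kinetin, 2180 and 2120 at 25 ng/ml, and 181 and 140 at 200 ng/ml. Its fold change at 25 ng/ml was -0.54 ± 0.20 (adjusted p = 0.299). Its arrays did not overlap, which also held for 11.1% of all tested probe sets in this direction.

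**Figure D4:**
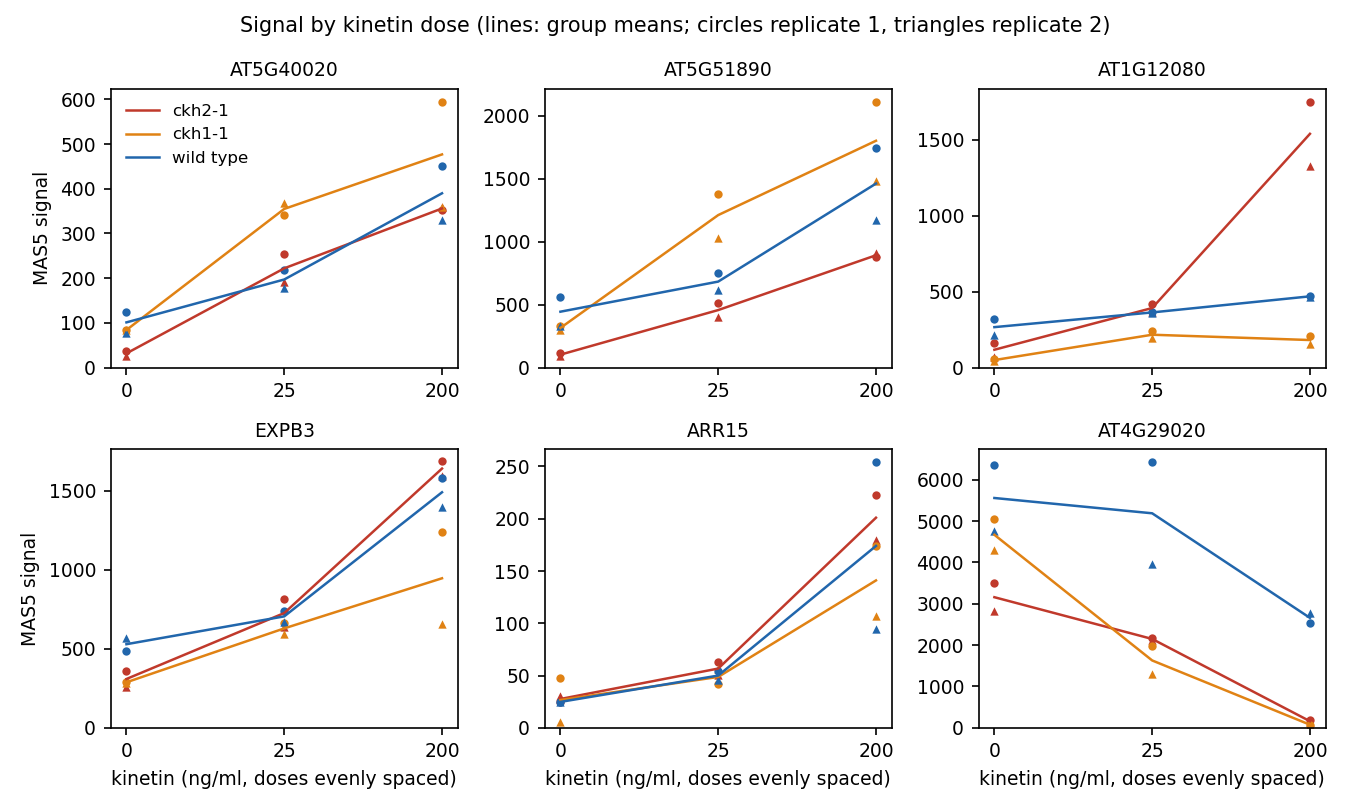
MAS5 signal of 6 genes at 0, 25 and 200 ng/ml kinetin (doses evenly spaced, each panel with its own scale from 0) in ckh2-1 (red), ckh1-1 (orange) and the wild type (blue), with lines through group means, circles for replicate 1 and triangles for replicate 2. In ckh2-1 the signal of AT1G12080 was higher at each step of dose and that of AT4G29020 lower.

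The fold changes of the wild type and ckh1-1 did not enter the choice of these genes, although their arrays shared its estimate of spread, its block and its filter. At 25 ng/ml most of the genes had the same direction in both. Of the 133, 132 were positive in ckh1-1, where 45.4% of all tested probe sets were, and 126 in the wild type, where 48.2% were. Both replicates were positive for 132 in ckh1-1 (32.4% of all tested) and for 114 in the wild type (25.4%). The median fold change of the 133 was 1.03 in ckh2-1, 1.22 in ckh1-1 and 0.44 in the wild type. Because they were chosen for a high value in ckh2-1, the ckh2-1 median is not on the same footing as the others. In ckh1-1, 120 of them were called higher, in a comparison that called 5.53% of all tested, and in the wild type 5, in one that called 0.0517%. The shared calls were 90.2% of the 133 and 14% of the ckh1-1 rises, and 3.76% of the 133 and 62.5% of the 8 wild-type rises. For the 13 called lower, 11 were negative in ckh1-1 and 9 of them called lower (69.2% of the 13, 1.46% of the ckh1-1 falls), where 3.98% of all tested were. In the wild type 12 of the 13 were negative and 0 were called, where 0.0129% of all tested were.

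At 200 ng/ml kinetin, in arrays of the same fit, the wild type called 123 of the 133 higher, where 5.65% of all tested were, and ckh1-1 called 129, where 14.5% were. Of the 13 called lower at 25 ng/ml in ckh2-1, the wild type called 11 lower at 200 ng/ml, where 5.75% were, and ckh1-1 called 10, where 18.7% were.

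The wild-type arrays on TSA, which share no array with the ckh2-1 comparison, went both ways for the genes that kinetin raised in ckh2-1. Of the 133 probe sets called higher at 25 ng/ml, 91 were higher and 42 lower on TSA than without addition, with a median of 0.38. Over all tested probe sets, 46.2% were higher on TSA, with a median of -0.05. Of the 133, 61 were called higher and 19 lower, where 16% and 19.4% of all tested probe sets were. AT1G12080 had 1540 and 1010 on TSA and AT1G03820 had 2870 and 2450, against 320 and 212, and 807 and 691, in the wild type without addition. AT4G33550 had 79.6 and 128 on TSA, against 205 and 123. Of the 13 probe sets called lower, 9 were called lower and 1 higher on TSA. AT3G22620, which fell in ckh2-1 at 25 ng/ml, had 2950 and 1570 on TSA, against 693 and 371 without addition.

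The levels behind the fold changes are given for the first genes named, which were chosen for a large rise in ckh2-1, and levels were not tested between genotypes. AT5G40020 had 254 and 191 at 25 ng/ml in ckh2-1, against 218 and 177 in the wild type, and 36.9 and 26.2 without kinetin in ckh2-1, against 125 and 77.3 in the wild type. Its levels at 25 ng/ml were thus near those of the wild type, and its levels without kinetin lay below them. AT5G51890 had 112 and 91.6 without kinetin in ckh2-1, against 557 and 328 in the wild type, and 509 and 404 at 25 ng/ml in ckh2-1, against 748 and 617 in the wild type. The fold change was 2.08 in ckh2-1 and 0.82 in the wild type for AT5G40020, and 1.90 and 0.63 for AT5G51890. These differences of 1.26 and 1.27 did not pass (adjusted p = 0.526 each), and the arrays without kinetin enter both the fold change and the level. Over the 133, the median signal without kinetin was 99.6 in ckh2-1, 103 in ckh1-1 and 145 in the wild type, and at 25 ng/ml it was 231, 289 and 202.

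AT4G08160 was the only gene named by the rule that passed in the wild type at 25 ng/ml (1.09 ± 0.17, adjusted p = 0.0306). Among the 22 genes plotted by genotype, AT3G22620 had the widest gap between the mutants, with a fold change of -1.12 ± 0.23 in ckh2-1 and 0.46 ± 0.23 in ckh1-1, where its signals were 348 and 251 at 25 ng/ml and 227 and 188 without kinetin. The difference did not pass (-1.58, adjusted p = 0.143).

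**Figure D5:**
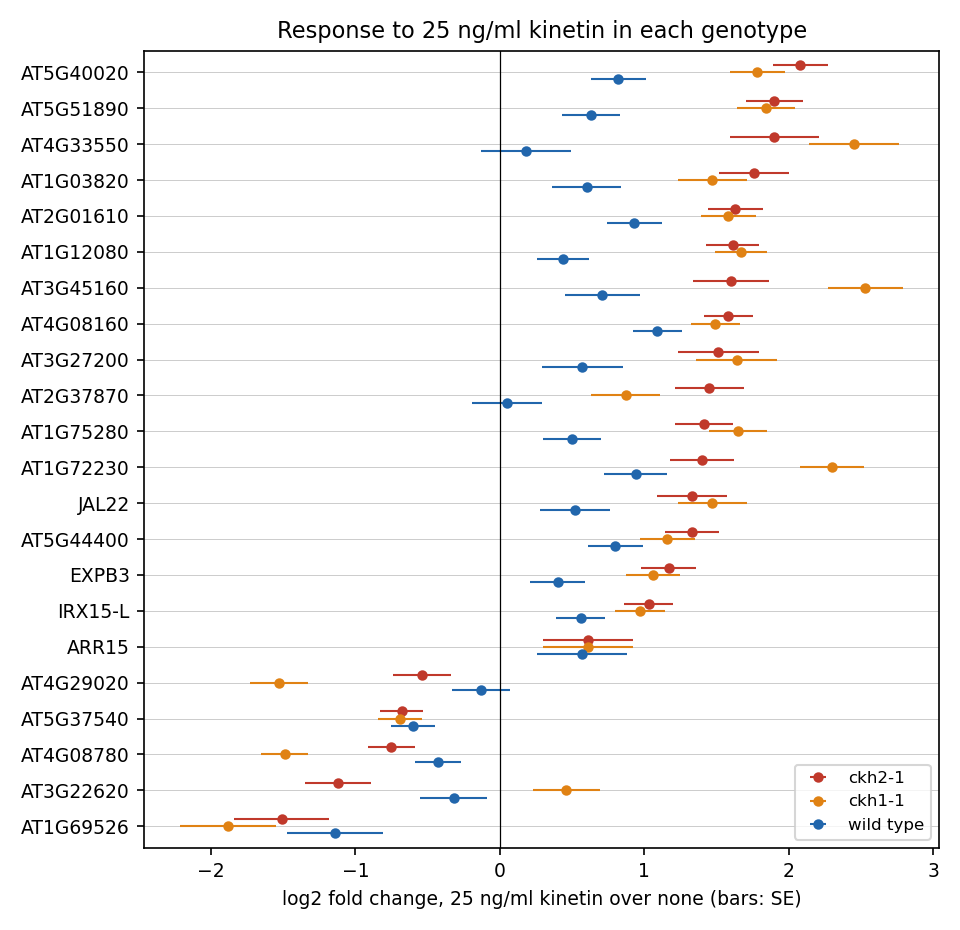
Log2 fold change, 25 ng/ml kinetin over none, of the 22 named genes in ckh2-1 (red), ckh1-1 (orange) and the wild type (blue), with SE as bars. For the rises of ckh2-1 the wild-type points lie between 0.05 and 1.09, and the ckh1-1 points between 0.87 and 2.53.

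When the difference in response was itself tested, little passed. Of 15469 probe sets, 1 responded differently in ckh2-1 and the wild type (0.00646%), with 888 at an unadjusted p below 0.05. By chance alone, about 773 would have an unadjusted p below 0.05. The 1 that passed is 265480_at, which maps to no gene. It had 340 and 299 at 25 ng/ml and 237 and 205 without kinetin in ckh2-1, against 449 and 356 at 25 ng/ml and 1000 and 790 without kinetin in the wild type. Its fold change was 0.48 ± 0.16 in ckh2-1 and -1.10 ± 0.16 in the wild type, a difference of 1.58 ± 0.22 (adjusted p = 0.0477). None of the named genes passed this test, with differences from the wild type of -0.80 to 1.71 and adjusted p from 0.526 to 0.993. That the fold change of 132 of the 133 was larger in ckh2-1 than in the wild type follows in part from their choice on the ckh2-1 arrays.

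Against ckh1-1, 8 probe sets responded differently (0.0517%), 5 with a higher value in ckh2-1 (0.0323%) and 3 with a lower one (0.0194%). An unadjusted p below 0.05 was found in 1020, where chance alone gives about 773. None of the 8 was called in ckh2-1 itself (adjusted p from 0.108 to 0.679), and all 8 were called in ckh1-1 (from 5e-06 to 0.000459). AT1G75880 had 71.6 and 41.3 at 25 ng/ml and 120 and 83.0 without kinetin in ckh2-1, against 74.7 and 41.1 at 25 ng/ml and 960 and 467 without kinetin in ckh1-1. The difference was 2.43 ± 0.34 (adjusted p = 0.0271), with closely similar levels in the mutants at 25 ng/ml. AT5G02230 differed by 1.79 ± 0.29 (adjusted p = 0.0468) and AT5G55340 by 1.32 ± 0.21 (adjusted p = 0.0468), each through a fall in ckh1-1.

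In the other direction, AT4G11190 had 9.56 and 4.42 at 25 ng/ml and 36.3 and 1.55 without kinetin in ckh2-1, against 130 and 100 at 25 ng/ml and 18.2 and 2.42 without kinetin in ckh1-1. The difference was -2.27 ± 0.29 (adjusted p = 0.0156). Its signals in ckh2-1 were near the floor, and the difference ran from -3.96 to -1.92 over the alternatives. AT1G23160 differed by -2.33 ± 0.39 (adjusted p = 0.0492), with 61.4 and 125 at 25 ng/ml and 136 and 123 without kinetin in ckh2-1, against 101 and 71.9 at 25 ng/ml and 3.16 and 2.50 without kinetin in ckh1-1. The ckh1-1 signals without kinetin were at the floor, and this difference ran from -4.53 to -1.83 over the alternatives. AT1G78060 differed by -1.26 ± 0.20 (adjusted p = 0.0468), with fold changes of 0.35 in ckh2-1 and 1.60 in ckh1-1. Each of the 9 differences was called in only 0 to 5 of 14 alternatives. Of the 8 between the mutants, 0 were called without replicate 1 of ckh2-1 without kinetin, without either ckh1-1 array at 25 ng/ml, or without replicate 1 of ckh1-1 without kinetin, and the 1 against the wild type was lost without any single array of the 8 compared.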

How the data were processed

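The authors deposited MAS5 signal intensity values on a linear scale for 22810 probe sets on 20 arrays; MAS5 is named in the submitters' processing notes, while neither its version nor its target value for scaling is stated there. Arrays were grouped by title. The 64 control probe sets were left out, and of the remaining 22746 the test covered 15469, whose mean in at least 1 group passed the 40th percentile (6.55 on the log2 scale). Log2 values of the signal plus 27.4 (0.1 of the median trimmed mean) were fitted with limma 3.58.1 in R 4.3.3 (lmFit, eBayes with a trend) as 10 group means plus the replicate number, over all arrays, with Benjamini-Hochberg adjustment. Residual degrees of freedom were 9. Interaction contrasts of this fit gave differences in response. The block follows the rule to compare within replicate number: deviations of same-numbered arrays correlated from -0.133 to 0.64 over 45 pairs of groups, and with r = 0.0211 between ckh2-1 at 25 ng/ml and without kinetin, so the numbers share the scaling and are not shown to pair cultures.

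Names come from the array's gene table, updated to RefSeq (TAIR10.1): 13513 probe sets map to 1 gene, 503 to several and 8730 to none. Genes named by rule were called, mapped to 1 gene, had 1 sign in both replicates and a higher group mean above the median signal of 115: up to 14 in each direction, called list members, type-A regulators and AT4G29020, and 3 in each direction for differences. The comparison and the gene lists were chosen with earlier results of these data known. The fit was checked on simulated data with independent errors. Those data held no deviation shared between arrays, like that of the 42 probe sets, so the check does not cover it. Alternatives were no block, common scaling, quantile normalization, a smaller constant, no filter, fewer arrays in the fit and single arrays left out. The number of arrays limits the precision.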

Additional observations from a re-analysis of the deposited data

Results flagged for a closer look

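Differences in the response to 25 ng/ml kinetin that passed limma's interaction test are given here with their values, on the log2 scale. Between ckh2-1 and the wild type it was the probe set 265480_at, which maps to no gene (1.58). Between ckh2-1 and ckh1-1, the response was higher in ckh2-1 for AT1G75880 (2.43), AT5G02230 (1.79), the probe set 261570_at without a gene (1.39), AT5G55340 (1.32) and AT2G16630 (1.3). It was lower in ckh2-1 for AT1G78060 (-1.26), AT4G11190 (-2.27) and AT1G23160 (-2.33). The adjusted p of these 9 ran from 0.0156 to 0.0492. AT4G11190 was called under 5 of 14 alternatives, AT1G75880 under 4, 265480_at and 261570_at under 2 each, AT5G02230, AT2G16630, AT1G78060 and AT1G23160 under 1 each, and AT5G55340 under 0.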

How the results depend on the processing

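The replicate block, single arrays and the arrays in the fit decided how many probe sets were called. The direction of the ckh2-1 fold change was followed for the genes plotted by genotype, the called genes with a name, 262796_at and 262041_at. None of them reversed under any alternative run, and other genes were not followed in this way. For ckh2-1 at 25 ng/ml against none (146 calls, 133 higher and 13 lower), no replicate block gave 14, 14 and 0, and the ckh2-1 arrays alone gave 52, 48 and 4. The lower calls were 6 after rescaling without the block and 7 without the filter. Totals with 1 array left out ran from 38 to 162, higher calls from 38 to 144 and lower calls from 0 to 18. With both arrays that were high for the 42 split probe sets left out, the counts were 0, 0 and 0, or 7, 7 and 0 when rescaled without the block, and 28, 28 and 0 with the opposite pair left out. These pairs were chosen after seeing the data. Of the 20 named genes called, no block kept 6 and the ckh2-1 arrays alone 11, single arrays left out 7 to 16, and those pairs 0, 4 and 9. Of the 2 list members called, no block, each of those pairs and some single arrays left out gave 0 (range 0 to 2), the ckh2-1 arrays alone 1, and rescaling with the block or the smaller constant 4. The 1 difference from the wild type was 0 without the block, after rescaling without it, with the smaller constant, without the filter, and with any single array left out. The 8 differences from ckh1-1 were 5 after rescaling with the block, 1 after rescaling without it or after quantile normalization, 0 without the block, with the smaller constant, without the filter or with these 2 genotypes alone, and 0 to 8 with single arrays left out. Probe sets past 1 in both replicates (48 higher, 5 lower) were 120 and 22 with the smaller constant, and 8 were lower after quantile normalization. The cause of these changes was not tested. With 1 array in a group, it is assumed to vary like the others.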

Other observations

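Among the called genes, 2 pairs are near neighbours in the RefSeq gene order. AT5G44390 and AT5G44400 are adjacent and rose by 0.93 and 1.33, and AT4G21760 (BGLU47) and AT4G21780, with 1 gene between them, rose by 0.94 and 1.03. None of the 133 probe sets carries the array suffix that marks sequence shared between genes.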
